A study of Mus musculus with 6 samples.

Results

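Integrins are the receptors by which cells hold on to extracellular matrix, and focal adhesion proteins join them to the actin cytoskeleton. Transcripts of these genes were followed in aggregates of mouse embryonic stem cells before and after pre-differentiation towards the cardiac lineage. The members were listed by gene symbol, with earlier results of these data known: 19 integrin subunits and 16 cytoplasmic adhesion genes, 35 in all. A row of their own on the array was found for 33 of them, out of 30184 genes with such a row. Itga1 shares its row with another gene and Ptk2, which encodes focal adhesion kinase, has no row under its symbol, so both are named only. Where a gene had several rows, the row with the highest mean over the 6 arrays was used.

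Total RNA of whole aggregates of the R1 embryonic stem cell line was hybridised to Clariom D arrays, and the values are the log2 signals deposited by the authors. The 3 arrays of the before group are of aggregates grown for 7 days in stem cell medium with LIF (leukaemia inhibitory factor) inside alginate microcapsules. The 3 arrays of the after group are of aggregates that then spent 3 days in regular DMEM with BMP-4 and bFGF, still inside the capsules so that they could not attach to the dish, and were released with sodium citrate before lysis. The recipe of the after medium names neither LIF nor Knockout serum, so effects of growth factors, medium and time in culture cannot be told apart. All cells come from the 1 line, which the study used with and without a GFP transgene; the sources do not say which was arrayed. RNA of whole aggregates does not show which cells carried a transcript, nor does it separate fewer cells of a type from less RNA per cell.

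An integrin is a dimer of an alpha and a beta subunit, and the choice of partners sets which matrix protein it binds. Inside the cell, talins and kindlins bind the beta tail and switch the receptor on. A complex of integrin-linked kinase, a PINCH protein and a parvin, together with vinculin, zyxin, paxillin, filamin and alpha-actinin, then ties the receptor to actin. In the early mouse embryo these receptors hold epiblast and primitive endoderm to basement membranes of laminin and type IV collagen.

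After pre-differentiation 26 of the 33 genes had a higher mean signal and 7 a lower one (5 of these 7 changes were small and turned sign with median centring), with Parva, Itgav, Itgb5 and Vcl at the upper end and Fblim1, which fell 8.67-fold, at the lower. By limma, with Benjamini-Hochberg adjustment over all rows, 0 of the 33 genes were higher (1.24% of all genes were) and 1 was lower, Fblim1 (0.649% of all genes were lower). Of all genes, 373 were higher and 196 lower (531 and 191 with quantile normalization, 486 and 135 with median centring). With limma's p left unadjusted and the same threshold, 15 of the 33 were higher, beside 10.9% of all genes, and 1 was lower, beside 19.7%. The median log2 change of the 33 was 1.14, or 0.57 without after replicate 2, where the median over all genes was -0.16 and over all rows -0.18, so that centring each array adds about 0.18 to a change. The change was over 2-fold upwards (above 1 in log2) in 17 of them (8.43% of all genes) and over 2-fold downwards in 1 (10.7% of all genes). The groups did not overlap in 18 genes with the after arrays on top (11.8% of all genes) and in 1 with the before arrays on top (28.2% of all genes), and they overlapped in 14. The exact permutation test over 3 and 3 arrays can give no two-sided p below 0.1, so the tests of single genes rest on limma.

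The after arrays were not alike, and after replicate 1 lay between the other arrays in much of the family. In 17 of the 33 genes its signal was above all before arrays and below both other after arrays, as in 9.04% of all genes. With that array left out, limma called 11 of the 33 higher (7.8% of all genes) and 1 lower (7.48% of all genes). The 11 were Itga3, Itgav, Itgb1, Itgb4, Itgb5, Itgb6, Itgb8, Parva, Vcl, Zyx and Fermt1, and the lower gene was again Fblim1. Leaving out any other array gave 0 calls in the family, where the number of calls among all genes was 101 higher and 67 lower without before replicate 2 and 0 without any of the remaining 4.

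**Figure D1:**
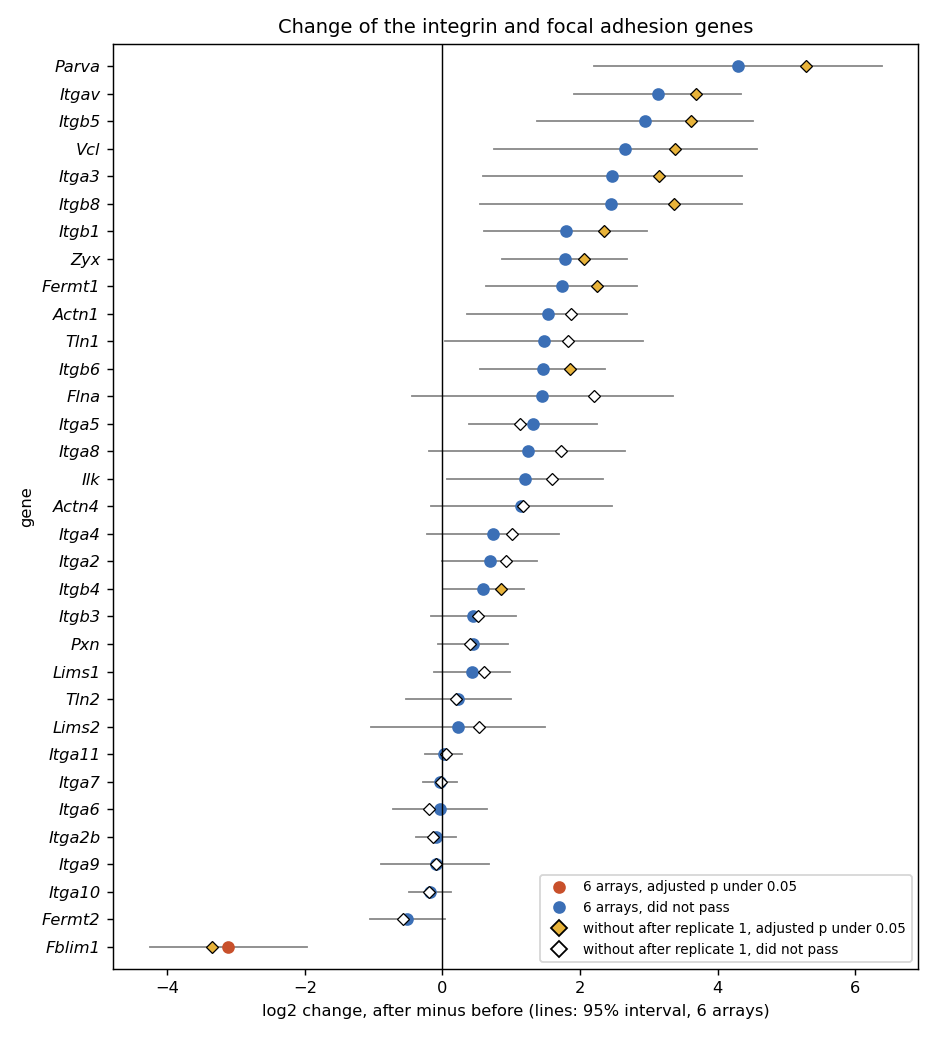
Log2 change (after minus before) of the 33 genes, ordered by size. Circles are the estimates over 6 arrays with 95% intervals from limma, and diamonds the estimates without after replicate 1. Fblim1 at -3.12 is the only circle past the threshold, and 12 diamonds are past it.

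**Figure D2:**
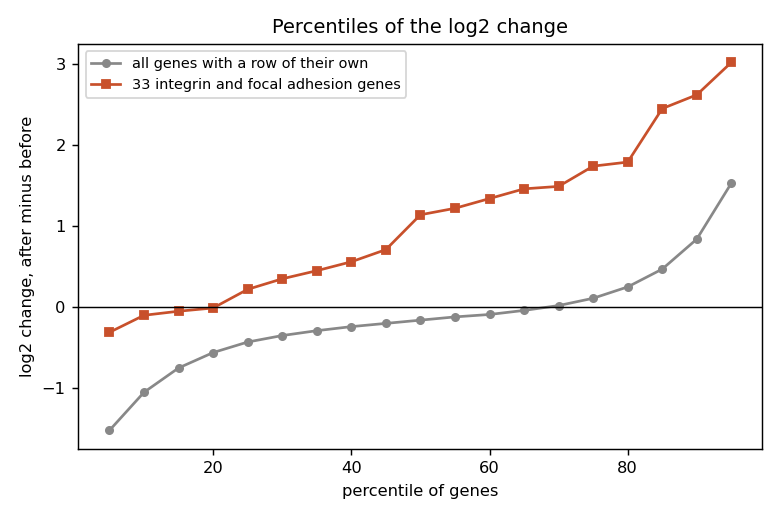
Percentiles (5 to 95, in steps of 5) of the log2 change of the 33 genes and of all 30184 genes. The curve of the 33 lies above that of all genes at each percentile drawn, with medians of 1.14 and -0.16.

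Short stretches upstream of 5 members are shown because they hold letters that match binding elements of serum response factor or TEAD factors. The genes differ in the sign of their change, and a link between match and change was not tested. The windows run from 250 bases before to 50 after each start in RefSeq (GRCm38.p6), and 25 of the 33 genes had at least 1 window, 31 windows in all. Capitals mark the CArG box, the binding element of serum response factor, in the first group:
Vcl: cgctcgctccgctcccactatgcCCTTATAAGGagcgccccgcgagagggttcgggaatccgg
Itgb6: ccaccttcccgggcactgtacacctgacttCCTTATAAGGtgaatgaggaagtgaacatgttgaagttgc
Fermt2: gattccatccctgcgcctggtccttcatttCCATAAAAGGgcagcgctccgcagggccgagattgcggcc
The Vcl stretch is chr14:20929148-20929210 on the plus strand, that of Itgb6 chr2:60673704-60673773 on the minus strand and that of Fermt2 chr14:45530230-45530299 on the minus strand. The box begins 227 bases before the start in Vcl, 50 in Itgb6 and 204 in Fermt2. These were the 3 members with the box, in 9.68% of the members' windows and 1.63% of all 32851 windows. Of the 3 genes, Vcl and Itgb6 had higher means after pre-differentiation and Fermt2 a lower one. The next group holds Fblim1, the member past the threshold, and Flna, whose protein it binds, and capitals mark GGAATG, the core of the element bound by TEAD factors, read on the other strand as CATTCC:
Fblim1: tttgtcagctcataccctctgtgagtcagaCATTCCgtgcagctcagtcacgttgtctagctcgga
Flna: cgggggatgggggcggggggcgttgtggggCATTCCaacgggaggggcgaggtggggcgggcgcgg
The Fblim1 stretch is chr4:141606088-141606153 and that of Flna chrX:74246645-74246710, both on the minus strand, and the motif begins 71 and 146 bases before the start. GGAATG, searched on both strands, was in the windows of 6 members (Actn4, Fblim1, Flna, Itga10, Itgb1 and Vcl), in 19.4% of the members' windows and 14.7% of all windows. GGGCGG was in 58.1% of the members' windows and 35.7% of all windows, and TATAAA in 3.23% and 13.6%, in Lims1 alone. The CArG box was searched as CC, 6 letters of A or T, and GG, which can contain TATAAA, and the other motifs as spelt, on both strands. A match is a description of letters, not of a bound site.

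The alpha v subunit came nearest to the threshold among the receptors. Itgav encodes the partner of several beta subunits in receptors for vitronectin, fibronectin and latent TGF-beta. Its log2 signal was 8.42, 8.72 and 8.23 before and 10.45, 12.10 and 12.21 after pre-differentiation. All after arrays lay above all before arrays, after replicate 1 by the least. The log2 change was 3.13 (standard error, SE, 0.49; limma adjusted p = 0.0518), about 8.73-fold. Over the alternatives the adjusted p ran from 0.00221 without after replicate 1 to 0.208 without after replicate 2, and it was 0.0498 with each array centred on its median.

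Of the beta subunits that pair with alpha v, Itgb5 changed most. Itgb5, a vitronectin receptor subunit, was at 8.04, 8.95 and 7.72 before and at 9.83, 11.88 and 11.83 after. The groups did not overlap, and the log2 change was 2.94 (SE 0.64, limma adjusted p = 0.0815). Itgb8, whose dimer with alpha v releases active TGF-beta, was at 4.18, 4.58 and 4.22 before and at 4.93, 7.85 and 7.54 after. Before pre-differentiation it thus lay at or near the background level of 4.27, set by the olfactory and vomeronasal receptor genes, and it was clear of that level on after replicates 2 and 3. Its log2 change was 2.45 (SE 0.78, adjusted p = 0.142). Itgb6, an epithelial subunit that also frees TGF-beta, was likewise near background before (4.20, 4.31 and 4.31) and at 4.93, 5.87 and 6.39 after. Its log2 change was 1.46 (SE 0.37, adjusted p = 0.102). Itgb3, the other vitronectin receptor subunit, had groups that overlapped, with 4.95 ± 0.36 before and 5.40 ± 0.33 after (SD, n = 3 each). Its log2 change was 0.45 with a 95% interval of -0.17 to 1.07.

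Itgb1, the beta subunit shared by most laminin, collagen and fibronectin receptors, was among the brightest rows of the family in both groups. It was at 13.82, 14.17 and 13.79 before and at 14.60, 16.41 and 16.14 after, with no overlap. The log2 change was 1.79 (SE 0.49, limma adjusted p = 0.114). It was 2.35 (adjusted p = 0.0051) without after replicate 1 and 1.45 (adjusted p = 0.309) without after replicate 2. Itgb4, which pairs only with alpha 6 and anchors epithelia in hemidesmosomes, was at 4.94, 4.97 and 4.85 before and 5.0, 5.77 and 5.78 after. After replicate 1 exceeded the highest before array by little here, and the log2 change was 0.59 (SE 0.24, adjusted p = 0.194). All 6 beta subunits had a higher mean after pre-differentiation, as did 9573 of all 30184 genes, with a median log2 change of 1.62. In 5 of the 6 the groups did not overlap, beside 11.8% of all genes with the after arrays on top.

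Among alpha subunits that pair with Itgb1, the laminin receptors did not move together. Itga3, a receptor for laminins of mature basement membranes, was at 7.71, 7.42 and 5.72 before and at 8.06, 10.04 and 10.16 after. Before replicate 3 was low and after replicate 1 close to the other before arrays, and the log2 change was 2.47 (SE 0.76, limma adjusted p = 0.138). Itga6, the laminin receptor of stem cells and epithelia, was at 10.93, 10.10 and 10.20 before and at 10.67, 10.06 and 10.38 after. The groups overlapped wholly, and its log2 change of -0.04 had a 95% interval of -0.72 to 0.65, so that a rise of the size measured for Itga3 lay outside it. The sign for Itga6 turned with quantile normalization and with median centring. Itga7, the laminin receptor of muscle, stayed at the background level in both groups (4.24 ± 0.03 and 4.20 ± 0.02, SD, n = 3 each).

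Subunits of fibronectin receptors differed in which after array was highest. Itga5, which with Itgb1 forms the main fibronectin receptor, was at 11.38, 10.01 and 10.45 before and at 12.30, 11.66 and 11.83 after. Among the 18 genes with all after arrays on top, it was the one in which after replicate 1 was the highest after array. Its log2 change was 1.32 (SE 0.38, limma adjusted p = 0.126). Itga8, a receptor for nephronectin and fibronectin in mesenchyme, was at 5.59, 5.55 and 5.65 before and at 5.85, 8.18 and 6.47 after. Itga4, which binds fibronectin and VCAM-1, was at 4.48, 4.29 and 4.35 before and at 4.56, 6.01 and 4.76 after. In both the high value was that of after replicate 2. The log2 changes were 1.24 (adjusted p = 0.243) and 0.73 (adjusted p = 0.286), and without after replicate 2 they were 0.57 and 0.28. Itga9, which is close to Itga4 in sequence and binds tenascin, had overlapping groups (6.02 ± 0.44 and 5.91 ± 0.46, SD, n = 3 each).

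The collagen receptor subunits with a row of their own, Itga2, Itga10 and Itga11, were dim, while Itga1 was not measured apart from the gene that shares its row. Itga2 was at 3.77, 3.81 and 3.78 before and at 4.0, 5.08 and 4.35 after, so that only after replicates 2 and 3 were above the background level. Its log2 change was 0.69 (SE 0.28, limma adjusted p = 0.202), or 0.38 without after replicate 2. Itga10 and Itga11, collagen receptors of cartilage and of fibroblasts, had group means between 3.74 and 3.97, below the background level. Itga2b, the platelet receptor subunit for fibrinogen, was below it too, at 4.14 ± 0.11 and 4.04 ± 0.08 (SD, n = 3 each). Rows at this level cannot show whether their genes changed. Of 6 markers of megakaryocytes, which use Itga2b, 4 had a row, and the log2 of their summed signal was 6.03 to 6.22 before and 5.99 to 6.40 after.

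**Figure D3:**
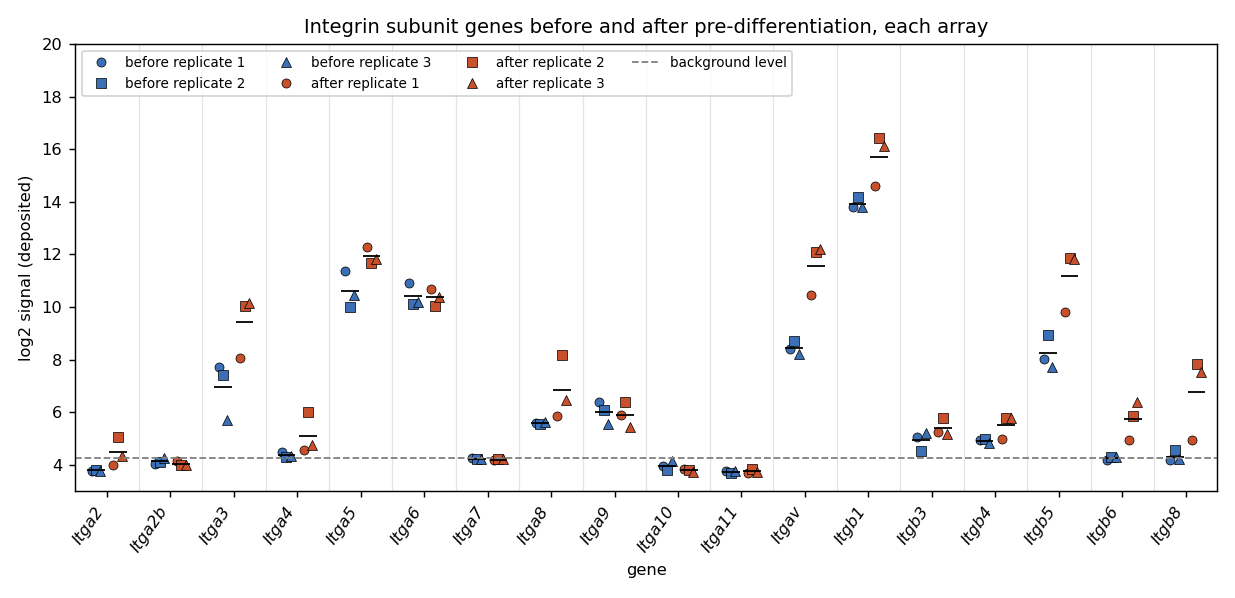
Log2 signal of 18 integrin subunit genes on each array; colours give the group, marker shapes the replicate number, short lines the group means and the dashed line the background level of 4.27. Itgav and Itgb5 separate the groups by the most, Itga6 lies between 10.06 and 10.93 on all arrays, and Itga2b, Itga7, Itga10 and Itga11 lie at the background level.

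Inside the cell, Fblim1 was the gene that passed the adjusted threshold. It encodes migfilin, an adaptor that binds filamin and kindlin at adhesions. Its log2 signal was 11.68, 11.65 and 10.29 before and 8.55, 8.19 and 7.52 after pre-differentiation. Every after array was below every before array, after replicate 1 included. The log2 change was -3.12 (SE 0.46, 95% interval -4.26 to -1.97, limma adjusted p = 0.0485), a signal 8.67-fold higher before than after. Of the 8 pluripotency markers, 4 were likewise below all before arrays on all after arrays, beside 28.2% of all genes. Of the 8, 0 were lower by limma, and Klf4 had a higher mean after pre-differentiation. The part of these markers in the change of Fblim1 was not tested. The call of Fblim1 lay close to the threshold. It was lost on leaving out each array but after replicate 1 (adjusted p between 0.064 and 0.194), with quantile normalization (0.0667), median centring (0.058), robust variances with a trend (0.0595), the methods' own test (0.145) and the replicate number as a block (0.102), while the direction held throughout.

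The kindlins, which bind integrin tails beside talin, differed in the sign of their change, and neither passed the test. Fermt2, the kindlin of embryonic stem cells and mesenchyme and a partner of migfilin, was at 12.65, 12.10 and 12.57 before and at 12.04, 12.13 and 11.60 after. The groups overlapped by a single pair of arrays, and the log2 change was -0.51 with a 95% interval of -1.05 to 0.03. Fermt1, the kindlin of epithelia, was at 4.90, 5.21 and 4.79 before and at 5.68, 7.25 and 7.17 after, without overlap. Its log2 change was 1.74 (SE 0.45, limma adjusted p = 0.105). It was 2.25 (adjusted p = 0.00491) without after replicate 1 and 1.46 (adjusted p = 0.301) without after replicate 2.

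In the complex around integrin-linked kinase 0 of the 4 members passed the test, and the groups did not overlap in Parva alone. Parva, the alpha-parvin that links the kinase to actin, had the highest log2 change of the family, 4.30 (SE 0.85, limma adjusted p = 0.0723), about 19.7-fold. It was at 6.89, 7.04 and 6.22 before and at 9.04, 12.24 and 11.77 after, where after replicate 1 was far below the others and still above all before arrays. Ilk, the kinase-like scaffold, was at 7.58, 7.72 and 8.76 before and at 8.42, 9.69 and 9.54 after, so the groups overlapped, with a log2 change of 1.20 (adjusted p = 0.186). Lims1, which encodes PINCH and bridges the kinase to growth factor signalling, had a log2 change of 0.43 with a 95% interval of -0.12 to 0.98. Lims2, its close relative, spread widely in both groups (5.33 ± 0.81 and 5.55 ± 0.68, SD, n = 3 each).

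Among genes of the link to actin, the groups of Vcl, Zyx, Actn1 and Actn4 did not overlap, and nor did those of the talin gene Tln1. In each the after arrays were on top, as in 11.8% of all genes. Vcl encodes vinculin, which strengthens adhesions under tension. It was at 10.40, 10.64 and 8.78 before and at 11.15, 13.50 and 13.13 after, with a log2 change of 2.66 (SE 0.78, limma adjusted p = 0.127). Zyx encodes zyxin, a sensor of stretched actin fibres. It was at 5.55, 6.53 and 5.63 before and at 7.12, 7.80 and 8.13 after, with a log2 change of 1.78 (SE 0.37, adjusted p = 0.077). The after arrays of Zyx were closer together than those of Vcl, after replicate 1 included.

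Tln1, the talin that activates integrins in most cells, was at 8.42, 8.40 and 6.63 before and at 8.56, 9.82 and 9.48 after. After replicate 1 was hardly above the 2 higher before arrays, and the log2 change was 1.47 (limma adjusted p = 0.194), or 0.88 without before replicate 3. Tln2, the talin of heart and brain, had overlapping groups with a log2 change of 0.23, which turned to -0.11 without before replicate 3. Pxn, the adaptor paxillin, had a log2 change of 0.45 with a 95% interval of -0.06 to 0.96.

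Flna, the actin cross-linker that migfilin binds, was at 10.64, 10.74 and 9.18 before and at 10.12, 12.73 and 12.07 after. After replicate 1 fell among the before arrays, and the log2 change was 1.45 (limma adjusted p = 0.286). It was 0.91 without after replicate 2, 0.95 without before replicate 3 and 2.21 without after replicate 1. The alpha-actinins Actn1 and Actn4 bundle actin at adhesions. Actn1 was at 12.86, 12.88 and 11.58 before and at 13.29, 14.09 and 14.52 after, with a log2 change of 1.53 (adjusted p = 0.138). Actn4 was at 14.19, 14.15 and 12.26 before and at 14.63, 14.73 and 14.68 after, so that its after arrays nearly coincided. Its log2 change of 1.14 (adjusted p = 0.241) was 0.51 without before replicate 3. In 16 of the 33 genes, 10 of them cytoplasmic, before replicate 3 was the lowest before array, as in 28.4% of all genes, and the family median fell from 1.14 to 0.72 without that array.

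**Figure D4:**
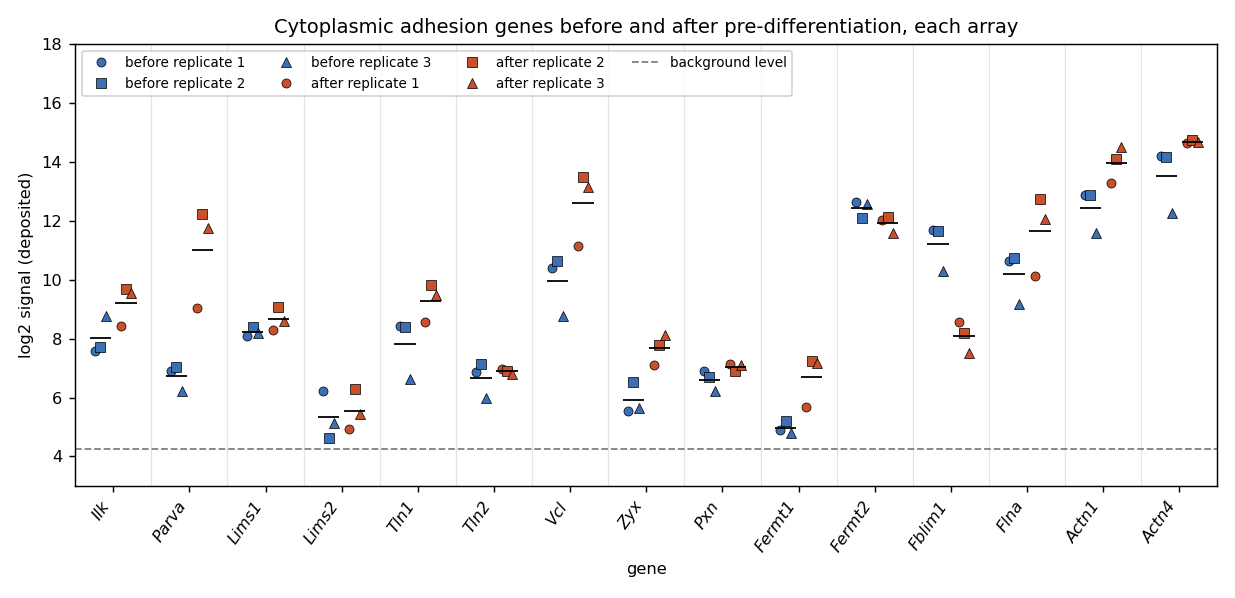
Log2 signal of 15 cytoplasmic adhesion genes on each array; colours give the group, marker shapes the replicate number, short lines the group means and the dashed line the background level of 4.27. Fblim1 is lower on each after array, Parva and Vcl are higher on each, and before replicate 3 (blue triangles) is the lowest before array for Tln1, Vcl, Flna, Actn1 and Actn4.

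Genes around the family were taken from lists compiled with some results of these data known. Of 34 matrix ligands of integrins with a row, 6 were higher (1.24% of all genes were) and 0 lower (0.649% of all genes were) by limma. Their median log2 change was 2.13. The largest of them were the type IV collagen genes Col4a2 (7.55, adjusted p = 0.02) and Col4a1 (6.87, adjusted p = 0.0192) and the laminin gene Lamb1 (6.35, adjusted p = 0.0283). Of 13 membrane partners 2 were higher and 0 lower, beside the same shares of all genes. Sdc4, the syndecan that works with fibronectin receptors, was at 8.94, 8.54 and 8.52 before and at 11.40, 10.63 and 11.66 after (log2 change 2.56, adjusted p = 0.0371). Bsg, which encodes basigin, had a log2 change of 1.26 (adjusted p = 0.0431).

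Of 51 other adhesion adaptors and kinases, with a median log2 change of 0.74, 1 was higher and 0 lower, beside 1.24% and 0.649% of all genes. The gene was Tns4, a tensin of epithelia that binds beta tails, at 4.81, 5.06 and 4.83 before and at 7.17, 6.79 and 7.22 after (log2 change 2.16, adjusted p = 0.0245). Here after replicate 1 lay with the other after arrays. Of 18 targets of serum response factor and YAP 1 was higher, the YAP target Ankrd1 (6.16, limma adjusted p = 0.0495). Of these targets 0 were lower, beside the same shares of all genes, and their median was 2.49. Of 7 integrin subunits of leukocytes 0 passed in either direction by limma (0 above and 1, Itgal, below when p is not adjusted). Itgal had a log2 change of -0.58 and Itgb7 one of -0.51. Without after replicate 1 limma called 19 of the ligands, 7 of the membrane partners, 19 of the adaptors and kinases and 12 of the factor targets higher, and 1 ligand, 1 membrane partner and 1 leukocyte subunit lower, where 7.8% of all genes were higher and 7.48% lower. Without before replicate 2 it called 3 ligands and 1 of the adaptors and kinases higher, and without any one of the other 4 arrays 0 genes of these lists in either direction.

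Summed signals of markers of several cell types moved along with the family, and their part in its changes was not tested. As log2 of the summed signal, 10 parietal endoderm markers were at 15.76 to 16.48 before and 18.50 to 18.91 after. By limma 5 of the 10 were higher, beside 1.24% of all genes. Sparc was the brightest of the 10 on every array. The 8 visceral endoderm markers were at 9.93 to 10.33 and 16.28 to 18.15, with 1 of the 8 higher by limma. Cubn (16.79) was the brightest of them on after replicate 1, and the groups of Amn overlapped. The 8 mesenchyme markers were at 7.52 to 7.57 and 8.89 to 17.02, lowest of the after arrays on replicate 1, with 0 of the 8 higher by limma. Col1a1 was the brightest of them on every after array, and the groups of Thy1 and Prrx1 overlapped. The 6 endothelium markers were at 9.31 to 10.14 and 10.52 to 13.88, with 1 of the 6, Cdh5, higher by limma (log2 change 6.56), while Pecam1 was lower on each after array than on any before array. The 5 smooth muscle markers were at 7.28 to 9.87 and 12.36 to 16.98, with 0 of the 5 higher by limma. Acta2 was the brightest of them on every after array, and the groups of Myh11 and Cnn1 overlapped. The 8 pluripotency markers were at 18.14 to 19.69 before, with all 8 above background, and at 18.52, 11.30 and 12.06 on after replicates 1, 2 and 3. Of the 8, 0 were lower by limma, and Klf4 had a higher mean after (log2 change 0.49). Dppa5a was the brightest of them on every before array and after replicate 1, and Klf4 on after replicates 2 and 3. The 6 cardiomyocyte markers were at 7.58 to 7.73 before and 7.61 to 9.80 after, with the groups overlapping.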

How the data were processed

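The log2 signals are as the authors deposited them from Transcriptome Analysis Console, 1 column for each of 3 before and 3 after arrays, labelled as biological replicates. The version of that software, its summarization and the genome build were not given in the sources used here. Array medians were 4.17 to 4.47, and no further scaling was applied.

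Groups were compared with limma 3.58.1 (lmFit and eBayes, two-sided) in R 4.3.3. P-values were adjusted by Benjamini-Hochberg over 72657 rows, all but 31 AFFX rows, at 0.05. Rows with a single symbol in the array annotation (30646) name 30184 genes; 2168 rows with several symbols name none. With no detection p in the table, the background (4.27) was set at the 95th percentile over 1717 olfactory and vomeronasal receptor genes. A group mean above it was found in 29 of the 33 members and 19708 of all 30184 genes. The shares given for all genes thus include many rows at background. Precision is limited by the number of arrays. The fit was tested on simulated data.

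The members and gene lists were chosen with earlier results of these data known. All members are accounted for. From each other list up to 3 genes past the threshold in each direction are named, or else those with the largest change. Alternatives were quantile normalization, median centring, dropping dim rows, transcript clusters only, robust variances with a trend, the methods' test for in vitro work, averaging the rows of a gene, blocking on replicate number and dropping each array in turn.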

Additional observations from a re-analysis of the deposited data

How the results depend on the processing

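Calls depended on single arrays and on the rows tested, while 25 of 33 family members kept their sign with both rescalings and without each of the 6 arrays, the settings that alter the estimates. Leaving out each array in turn, limma called between 0 and 2353 genes higher and between 0 and 2258 lower, the family from 0 to 11 higher and 0 to 1 lower, its integrin subunits from 0 to 7 higher, its cytoplasmic genes from 0 to 4 higher and 0 to 1 lower, and the family median from 0.57 (without after replicate 2) to 1.13. With rows above background only, 667 genes were higher and 436 lower, and 2 members were higher, 1 of them a subunit (Itgav) and 1 cytoplasmic (Parva). With transcript clusters only, 378 genes were lower and 1 member, Itgav, was higher. Fewer rows are tested in both. A trend together with robust variances left 138 genes higher, 30 lower and 0 members lower. The Student test, which the methods name for in vitro studies but not for the arrays, gave 0 genes in either direction and 0 members after adjustment. Unadjusted, that test gave 2320 genes higher and 5549 lower, and 9 members higher, 5 of them subunits and 4 cytoplasmic. Genes numbered 531 higher and 191 lower with quantile normalization and 486 and 135 with median centring, beside 373 and 196 as deposited. With quantile normalization 0 members passed; with median centring 0 were lower and 1, the subunit Itgav, was higher. The cause was not tested for settings that keep rows and arrays.

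The sign turned for genes with small changes. Quantile normalization gave 0.09 for Itga2b, 0.22 for Itga6, 0.15 for Itga7 and 0.06 for Itga9, and median centring gave 0.09, 0.15, 0.15 and 0.08 for the same genes and 0.00189 for Itga10. Leaving out 1 array, Itga6 ranged from -0.19 to 0.22, Itga9 from -0.34 to 0.12, Itga11 from -0.04 to 0.05, Lims2 from -0.15 to 0.67 and Tln2 from -0.11 to 0.47.

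A fit with a replicate block by number gave 0 genes and 0 members in either direction. The labels use the same replicate numbers in both groups and do not say whether the cultures were paired. The deviations of same-numbered arrays had correlations of -0.03, 0.14 and -0.08, and after replicates 1 and 3 were closest to a before array of another number. Values from so few arrays cannot decide on pairing.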

Other observations

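Before replicate 3 was the lowest before array in 35 of 51 other adhesion adaptors and kinases (68.6%) and in 11 of 18 targets of serum response factor and YAP (61.1%), against 28.4% of all genes. In 4 of 13 membrane partners (30.8%) it was the lowest. After replicate 1 was the lowest after array in all 18 of the factor targets, in 30 of 34 matrix ligands (88.2%) and in 38 of 51 adaptors and kinases (74.5%), against 34.6% of all genes. In 1 of 7 leukocyte integrin subunits (14.3%) it was the lowest. These patterns were seen after the values were known and were not tested.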
